A study of Sus scrofa with 34 samples.

Results

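The genes described here move long-chain fatty acids into mitochondria and clear malonyl-CoA, the molecule that blocks this entry. They were chosen by symbol, as 7 genes: CPT1A, CPT1B, CPT2, SLC25A20, CRAT, SLC22A5 and MLYCD. Of these, 6 were found among the 25880 genes of the count tables, and all 6 passed the filter on low counts in the liver and in the ileum. No row carried the identifier that the name table gives for SLC22A5, the plasma membrane carnitine transporter, so this gene was not analysed here.

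Long-chain fatty acids reach the mitochondrial matrix as carnitine esters. The carnitine palmitoyltransferase of the outer membrane (CPT1A in liver, CPT1B in muscle) makes the ester, the carrier of the inner membrane (SLC25A20) exchanges it for free carnitine, and CPT2 turns it back into acyl-CoA. CRAT does the same for short acyl groups, and MLYCD decarboxylates malonyl-CoA, the inhibitor of CPT1. In liver these genes are known targets of PPAR alpha, the nuclear receptor that senses fatty acids and binds a repeat of the hexamer AGGTCA spaced by 1 base, known as DR1.

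Poly(A) RNA of weaned piglets was sequenced after 28 days of feeding. Livers came from 4 diets of 6 pigs each: a basal diet (control), the basal diet with a phytogenic feed additive of essential oils and nature-identical compounds (PFA), the basal diet with oxidized rapeseed oil (OO), and both additions together (OO + PFA). The ileum was sequenced in 5 control and 5 PFA pigs, and each of these 10 pigs also gave a liver library. All pigs received rapeseed oil in the basal feed, the oil of the OO diets had been oxidized by heating, each diet was fed in 1 pen, and no diet held the same extra oil unheated, so oil oxidation, oil amount and pen cannot be told apart.

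Between 18738055 and 42446834 read pairs per library were counted on genes. One liver library of the OO + PFA group, from pig 77, stood apart: it had 36.6 read pairs with several alignments per 100 counted on genes, against 3.02 to 14.7 in the other 23 livers. The study left it out for suspected RNA degradation, and the liver fits here hold the other 23 libraries. Hepatocyte markers (6 of 6 in the tables) summed to between 78540 and 189000 CPM in these livers. CPM are counts of a gene scaled to a common library total. In the ileum these markers summed to between 1735 and 4025. Only 2 of the 6 in control and 3 in PFA ileum averaged over 3 counts a library. TTR was at 0 in all ilea and SERPINA1 in all PFA ilea. Enterocyte markers (5 of 6 in the tables) summed to between 18490 and 20740 in control ileum. In PFA ileum they summed to between 13990 and 18200, below every control ileum. They came to at most 597.6 in the livers, where SI was at 0 in all control, OO and OO + PFA livers and FABP2 in all PFA livers. Since these are whole tissues, more of a cell type and more RNA per cell cannot be told apart.

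On the pig assembly Sscrofa11.1 the 6 genes lie on 5 chromosomes. RefSeq places CPT1A (ENSSSCG00000012880) at chr2:4250642-4293914 on the plus strand, CPT1B (ENSSSCG00000022364) at chr5:155552-163536 on the plus strand, CPT2 (ENSSSCG00000003851) at chr6:159038129-159061327 on the minus strand, SLC25A20 (ENSSSCG00000011366) at chr13:31523820-31553289 on the minus strand, CRAT (ENSSSCG00000005671) at chr1:269387430-269401334 on the minus strand and MLYCD (ENSSSCG00000031450) at chr6:4683386-4698698 on the minus strand. Counts were made over exons. The exons of CRAT and MLYCD were the richest in G and C, at 62.8% and 63.3%, those of CPT1B held 59.8%, CPT2 56.7%, CPT1A 53.7% and SLC25A20 50.03%. This spread matters below, because the liver libraries differed in how their counts changed with GC content.

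The 250 bases before the RefSeq start of 3 of the genes are shown, 5′ to 3′ on the strand of the gene, because CRAT and MLYCD varied together more than any other pair before a correction for GC content, and CPT2 has a DR1 hexamer before its start. They were chosen after the values were seen. Capitals mark the GC box (GGGCGG), the CCAAT box (CCAAT) and the hexamer (AGGTCA), each searched on both strands. The regions are chr1:269401335-269401584 for CRAT, chr6:4698699-4698948 for MLYCD and chr6:159061328-159061577 for CPT2, all on the minus strand of Sscrofa11.1.
CRAT: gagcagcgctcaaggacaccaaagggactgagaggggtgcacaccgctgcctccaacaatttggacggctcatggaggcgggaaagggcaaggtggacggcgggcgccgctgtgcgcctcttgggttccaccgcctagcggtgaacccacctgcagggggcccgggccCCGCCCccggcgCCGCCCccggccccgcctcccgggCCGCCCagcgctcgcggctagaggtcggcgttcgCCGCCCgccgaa
MLYCD: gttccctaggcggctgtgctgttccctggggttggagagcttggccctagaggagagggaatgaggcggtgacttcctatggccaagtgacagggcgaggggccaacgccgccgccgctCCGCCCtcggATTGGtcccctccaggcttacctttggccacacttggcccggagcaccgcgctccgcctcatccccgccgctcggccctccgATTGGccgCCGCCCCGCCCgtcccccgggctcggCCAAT
CPT2: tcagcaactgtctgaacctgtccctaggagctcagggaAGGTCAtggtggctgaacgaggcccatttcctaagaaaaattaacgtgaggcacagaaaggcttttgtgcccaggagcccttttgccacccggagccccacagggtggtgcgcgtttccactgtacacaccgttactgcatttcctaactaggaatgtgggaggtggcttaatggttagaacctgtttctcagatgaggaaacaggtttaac

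The CRAT region held 4 GC boxes and no CCAAT box, and that of MLYCD held 3 GC boxes, a pair of which share 1 base, and 3 CCAAT boxes. No GC box and no CCAAT box was present before CPT2, which held 1 hexamer. Among 20655 protein-coding genes, 44.4% of such regions had a GC box and 15.4% had at least 3, 32.0% had a CCAAT box and 12.3% had the hexamer. GC content was 74% for CRAT and 70.4% for MLYCD against 51.2% for CPT2 and a median of 57.2% over all these regions. The full DR1 (AGGTCANAGGTCA) occurred in 0.0242% of all regions and in none of these 3. Within the 6 genes and 5 kb on either side it matched once, as aggtcagaggtca at chr13:31521300-31521312 on the minus strand, beyond the end of SLC25A20. These are matches of letters in the reference genome, and binding was not measured.

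The first question was whether the oxidized oil diet changed these genes in the liver. It raised 5 of the 6: CPT1A, CPT2, SLC25A20, CRAT and MLYCD were between 1.91-fold and 3.48-fold higher with OO than in control livers, and CPT1B missed the threshold. Over all 13831 genes tested 2.71% were called in this comparison, and 1.37% were called as higher. Called means an adjusted p no higher than 0.05 (edgeR's quasi-likelihood test, two-sided, Benjamini-Hochberg over all genes tested). The median log2 fold change of the 6 genes was 1.35, beside 0.06 over all genes. In the F test across the 4 liver diets all 6 genes were called, beside 3.66% of all genes.

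**Figure D1:**
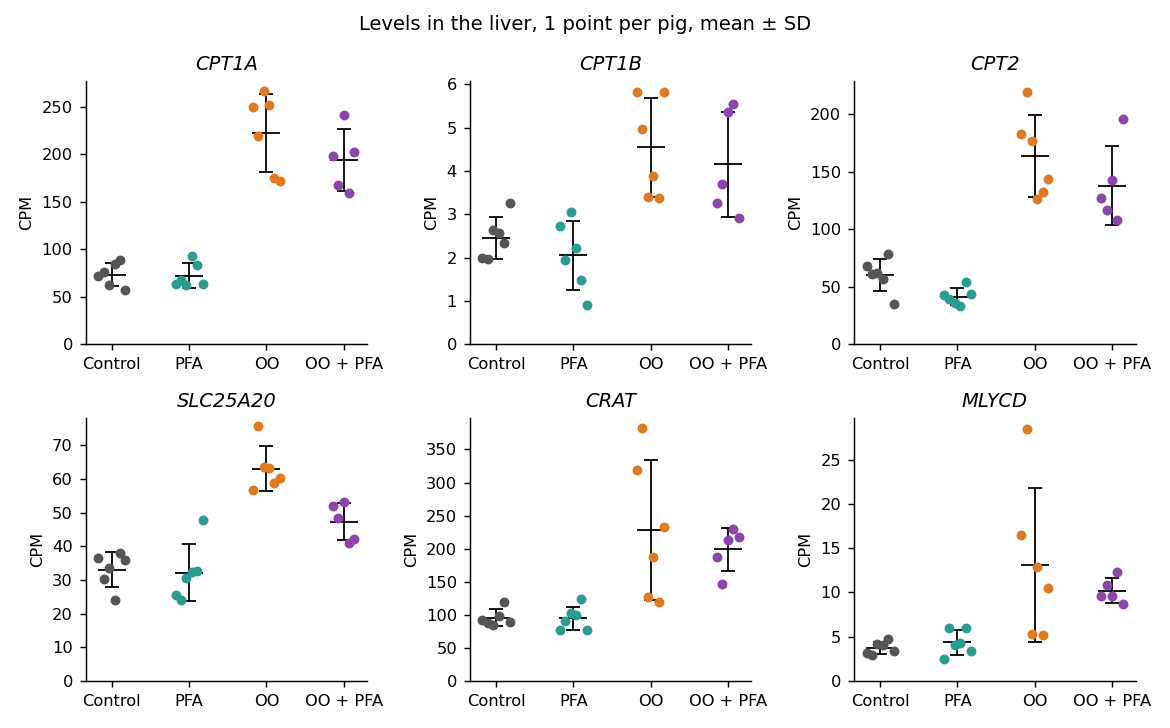
Levels of the 6 genes in 23 livers, in CPM, by diet. Each point is 1 pig, and the horizontal bar and whiskers are the mean and SD. CPT1A, CPT2, SLC25A20 and MLYCD were higher in every liver of the OO and OO + PFA diets than in every control liver, while CRAT and MLYCD spread most among the OO pigs.

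CPT1A, the liver form of the enzyme that commits fatty acids to oxidation, was at 73.4 ± 12.1 CPM (SD, n = 6) in control livers, with a lowest value of 57.1, a median of 74.1 and a highest of 88.4. With OO it was at 223 ± 40.7 CPM (SD, n = 6), from 172 over a median of 235 to 267. The groups did not overlap. This difference, 3.03-fold or 1.60 on the log2 scale (standard error 0.15, 95% interval 1.29 to 1.91), had an edgeR adjusted p of 4.94e-07. How many of all genes separate without overlap was not counted, for this comparison or those below.

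CPT2, which reforms acyl-CoA inside the mitochondrion, was at 60.2 ± 14.3 CPM (SD, n = 6) in control livers (lowest 35.3, median 61.6, highest 78.1) and at 164 ± 35.7 CPM (SD, n = 6) with OO (lowest 126.4, median 160.3, highest 219.6). Every OO liver lay above every control liver. The increase was 2.72-fold, or 1.44 on the log2 scale (standard error 0.18, edgeR adjusted p = 3.26e-05).

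SLC25A20, the carnitine-acylcarnitine carrier, rose less, from 33.1 ± 5.18 CPM (SD, n = 6) in control livers (lowest 24.1, median 34.7, highest 38.1) to 63.1 ± 6.66 CPM (SD, n = 6) with OO (lowest 56.8, median 61.8, highest 75.6). Again the groups were apart. The fold change was 1.91, or 0.93 on the log2 scale (standard error 0.14, edgeR adjusted p = 0.000464).

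CRAT, which forms short-chain acylcarnitines, was at 95.3 ± 12.96 CPM (SD, n = 6) in control livers (lowest 84.0, median 90.6, highest 120.0). OO livers were uneven, at 228 ± 106 CPM (SD, n = 6) with a lowest value of 119, a median of 209.6 and a highest of 383. One of the 6 OO livers fell within the control range and 5 lay above it. The log2 fold change was 1.26 (standard error 0.22, edgeR adjusted p = 0.00229).

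MLYCD, the malonyl-CoA decarboxylase, had the largest change of the 6 and the widest spread. It was at 3.75 ± 0.678 CPM (SD, n = 6) in control livers (lowest 2.98, median 3.71, highest 4.70) and at 13.1 ± 8.68 CPM (SD, n = 6) with OO (lowest 5.19, median 11.7, highest 28.4). The groups did not overlap, although pigs 74 and 97 of the OO group, at 5.29 and 5.19 CPM, were close to the highest control. The log2 fold change was 1.80 (standard error 0.32, edgeR adjusted p = 0.00208).

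CPT1B, the muscle form, was scarce in liver. It was at 2.46 ± 0.481 CPM (SD, n = 6) in control livers (lowest 1.96, median 2.45, highest 3.25) and at 4.55 ± 1.15 CPM (SD, n = 6) with OO (lowest 3.38, median 4.43, highest 5.83). Although these groups did not overlap, its log2 fold change of 0.88 (standard error 0.24, 95% interval 0.38 to 1.39) had an edgeR adjusted p of 0.0517. DESeq2 gave an adjusted p of 0.0130 for it, so the call depends on the tool. Striated muscle markers (4 of 6 in the tables) summed to between 0.105 and 0.672 CPM over the 4 liver diets.

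**Figure D2:**
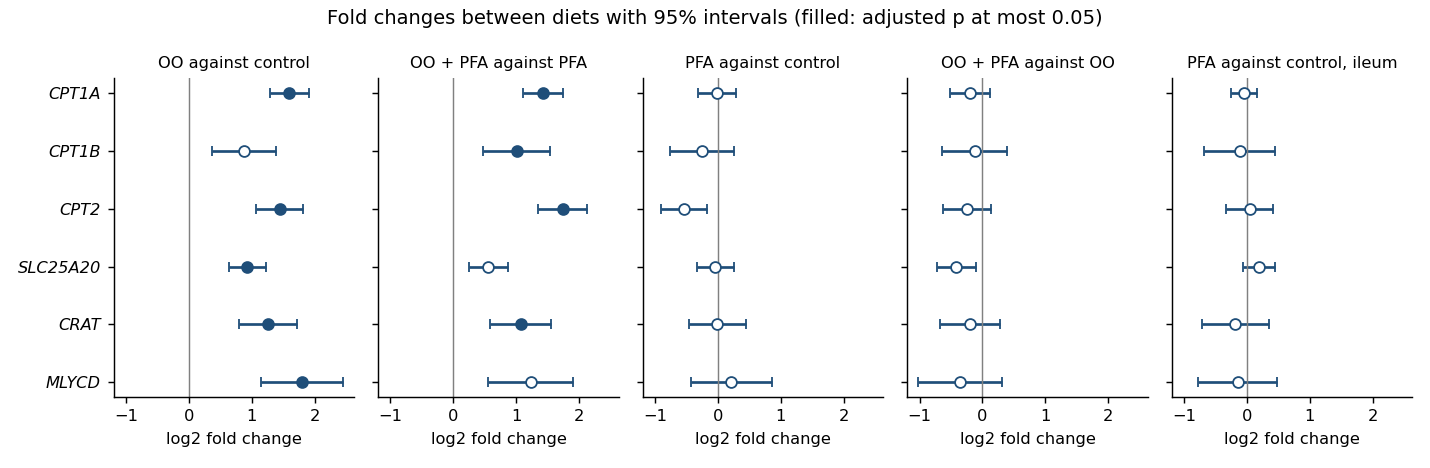
Log2 fold changes of the 6 genes with 95% intervals in 4 liver comparisons and in the ileum. Filled points have an adjusted p of at most 0.05. Both comparisons that add the oil lie to the right of 0 for all 6 genes, and no gene is filled where PFA is added.

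The same question could be asked in pigs that all received PFA. OO + PFA was set against PFA alone in other animals than those above, and 4 of the 6 genes (CPT1A, CPT1B, CPT2 and CRAT) were called as higher, beside 1.24% of all genes called as higher and 1.58% called in either direction. CPT1A was at 62.0, 63.3, 63.9, 68.1, 83.4 and 93.3 CPM in the PFA livers and at 160, 168, 199, 203 and 241 CPM in the OO + PFA livers. Its log2 fold change was 1.42 (standard error 0.15, edgeR adjusted p = 9.59e-06). CPT2 was at 108, 116, 127, 143 and 195 CPM with OO + PFA and at 33.4 to 53.8 CPM with PFA (median 40.8), and its log2 fold change of 1.74 (standard error 0.19, edgeR adjusted p = 9.59e-06) was the largest of this comparison. No OO + PFA liver overlapped a PFA liver for either gene.

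CRAT was 1.07 higher on the log2 scale with OO + PFA than with PFA (standard error 0.23, edgeR adjusted p = 0.0181), and its 5 values of 147, 187, 213, 217 and 230.2 CPM were above the highest PFA value of 123. Without pig 95 or pig 107 of the PFA group CRAT just missed the threshold (edgeR adjusted p = 0.0527 and 0.0512). CPT1B was called at the edge of the threshold, at 1.01 (standard error 0.26, edgeR adjusted p = 0.0466), and the call was lost in 8 of 11 fits without 1 pig and in 5 of 9 other settings. MLYCD and SLC25A20 lay just outside it. MLYCD was at 8.68, 9.57, 9.58, 10.8 and 12.3 CPM with OO + PFA against 2.44 to 5.99 with PFA, a log2 fold change of 1.23 (standard error 0.32, edgeR adjusted p = 0.0538). SLC25A20 gave 0.56 (standard error 0.15, edgeR adjusted p = 0.0545), with 3 of its 5 OO + PFA values (41.1, 42.1, 48.5, 52.0 and 53.1 CPM) above the highest PFA value of 47.8.

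OO + PFA was also compared with control, which shares the control livers of the first comparison. Here 5 of the 6 genes were called as higher, beside 5.08% of all genes called and 4.09% called as higher. The log2 fold changes were 1.40 for CPT1A, 1.20 for CPT2, 0.52 for SLC25A20, 1.06 for CRAT and 1.44 for MLYCD. Without any 1 of the 11 pigs SLC25A20 was no longer called (edgeR adjusted p between 0.0505 and 0.0925). CPT1B gave 0.76 (edgeR adjusted p = 0.0771).

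PFA by itself was compared with control to ask whether the additive changed these genes. No member was called with PFA by edgeR, where 0% of all genes were called, nor by DESeq2, and 1 had an unadjusted p under 0.05 with either tool. Over all genes 1522 had an unadjusted p under 0.05 in edgeR and DESeq2 called 37. That gene was CPT2, at 41.4 ± 7.17 CPM (SD, n = 6) with PFA, which was 0.54 lower on the log2 scale than in control livers (standard error 0.18, edgeR adjusted p = 0.333). All 6 PFA livers lay within or below the control range for CPT2. CPT1A differed by -0.02 (95% interval -0.32 to 0.28), so a change beyond about these limits was not seen. For MLYCD the interval was wider, -0.43 to 0.86.

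Adding PFA on top of the oil (OO + PFA against OO) called no member either, and 0% of all genes, with 1 member at an unadjusted p under 0.05 in edgeR and in DESeq2. Over all genes 1176 were under 0.05 unadjusted in edgeR and DESeq2 called 31. The member was SLC25A20, whose 5 OO + PFA livers all lay below its 6 OO livers, with a highest value of 53.1 CPM against a lowest OO value of 56.8. How many of all genes separate in this way was not counted. The log2 fold change of SLC25A20 was -0.41 (standard error 0.15, 95% interval -0.72 to -0.11, edgeR adjusted p = 0.4664). The other 5 genes had values between -0.36 for MLYCD and -0.13 for CPT1B. The interaction of oil and PFA, which tests whether the oil response differs with the additive, was called for none of the 6 genes and for 0% of all genes by edgeR, and no member had an unadjusted p under 0.05 in edgeR or DESeq2, while 1881 of all genes did in edgeR and DESeq2 called 161. Its smallest p among the 6 was that of SLC25A20, at -0.37 on the log2 scale (95% interval -0.80 to 0.05, edgeR adjusted p = 0.427).

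Pig 77, left out above, had an uneven profile when all 24 livers were scaled together. Its CPT1A (75.7 CPM), CPT2 (39.4 CPM) and SLC25A20 (28.0 CPM) were within the range of the control livers, while its CRAT (288 CPM), MLYCD (10.99 CPM) and CPT1B (6.30 CPM) were at or above the level of the other OO + PFA livers. Its GC slope, defined in the next paragraph, was 0.645, the highest of all 24. With it in the fit, CPT1A was 1.25 higher on the log2 scale with OO + PFA than in control livers and CPT2 1.01, both still called (edgeR adjusted p = 0.00119 and 0.0134).

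Several measures of the libraries moved with the diets. The GC slope of a library is the change of its log2 CPM, against the mean of all livers, for each 10 percent of GC content of a gene. It ran from -0.233 to 0.0554 in control, -0.503 to 0.0386 in PFA, -0.406 to 0.389 in OO and 0.0116 to 0.459 in OO + PFA livers. After the diet means were taken away, it had a Pearson correlation over 23 livers of 0.827 with CRAT, 0.729 with MLYCD and 0.709 with CPT1B, but of -0.0492 with CPT1A, 0.0326 with CPT2 and -0.293 with SLC25A20. These are descriptions, and the slope was estimated from the same libraries.

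**Figure D3:**
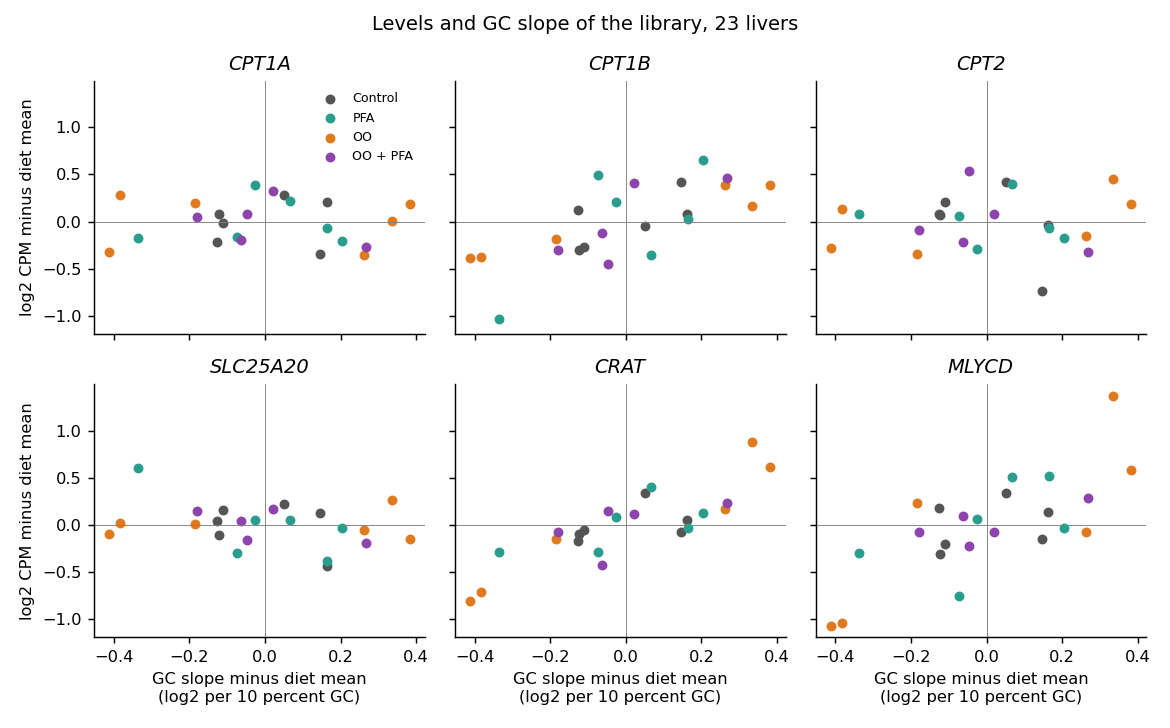
Level of each gene against the GC slope of its library in 23 livers. Both axes have the mean of the diet taken away (log2 CPM, and log2 per 10 percent GC). CRAT, MLYCD and CPT1B climb to the right, with correlations of 0.827, 0.729 and 0.709, and CPT1A and CPT2 show no slope.

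With counts corrected for GC content in each library, OO against control called all 6, beside 7.35% of all genes in that fit, and the fold changes of the GC-rich ones were smaller. CRAT went from 1.26 to 0.89 on the log2 scale (edgeR adjusted p = 0.000196) and MLYCD from 1.80 to 1.37 (edgeR adjusted p = 0.00033), while CPT1A stayed at 1.61 and CPT2 at 1.40. For OO + PFA against control CRAT went from 1.06 to 0.50 and MLYCD from 1.44 to 0.83, and both were still called (edgeR adjusted p = 0.0302 and 0.0242), beside 6.77% of all genes. For OO + PFA against PFA CRAT went from 1.07 to 0.50 (edgeR adjusted p = 0.0467), MLYCD from 1.23 to 0.65 (edgeR adjusted p = 0.107) and CPT1B from 1.01 to 0.67 (edgeR adjusted p = 0.0655), beside 2.58% of all genes called. A GC value was known for 6 of the 6 members but for 79.7% of the liver genes tested, and the corrected fit holds those genes alone.

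Read pairs on no annotated gene were fewer in OO than in control livers. Per 100 read pairs on genes they ran from 12.97 to 23.5 in control, 7.54 to 14.3 in PFA, 9.20 to 12.6 in OO and 11.6 to 16.01 in the fitted OO + PFA livers. With this share as a term in the model, added after the data were seen, 3 of the 6 genes were called for OO against control, beside 0.578% of all genes: CPT1A at 1.73, CPT2 at 1.31 and SLC25A20 at 0.70 on the log2 scale. CRAT (1.16, edgeR adjusted p = 0.102) and MLYCD (1.65, edgeR adjusted p = 0.115) were not, and neither was CPT1B (1.11, edgeR adjusted p = 0.139). In OO + PFA against PFA, where the share was not lower with the oil, CPT1A, CPT2, SLC25A20 and CRAT were called with the same term, beside 1.01% of all genes.

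The liver titles had 2 forms, PigLiv and PL, whose meaning the labels do not give. Within PigLiv, 3 OO were set against 4 control libraries and CPT1A was 1.78 higher on the log2 scale. Within PL, 3 OO against 2 control libraries gave 1.32. The other members were higher with OO in both forms, from 0.82 (SLC25A20) to 1.65 (MLYCD) within PigLiv and from 0.73 (CPT1B) to 1.81 (MLYCD) within PL. CPT1A and CPT2 passed the test in each form, SLC25A20 and MLYCD within PL, and CRAT and CPT1B in neither. The share of all genes that passed within each form was not counted. Of the adipocyte markers (4 of 5 in the tables, LEP at 0 in all fitted livers) only 1 averaged over 3 counts a library in each diet. They summed to between 0.457 and 2.18 CPM in control, 1.14 and 2.78 in PFA, 1.65 and 8.42 in OO and 3.78 and 5.58 in OO + PFA livers. Bile duct markers (4 of 5 in the tables) summed to between 11.08 and 25.3 in control and 12.15 and 34.8 in PFA livers. The bile duct sums were 21.4 to 35.4 in OO and 19.5 to 37.8 in OO + PFA livers. The part of either marker set in the results was not tested.

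Neighbouring genes of the pathway were read from 5 lists. Of the other acylcarnitine enzymes 3 of 4 tested rose with OO against control, beside 2.71% of all genes called. ACADVL, which begins the oxidation of very-long-chain acyl-CoA, was 1.44 higher on the log2 scale (standard error 0.16, edgeR adjusted p = 5.34e-06), HADHA and HADHB, the subunits of the mitochondrial trifunctional protein, were 1.09 and 0.86 higher (edgeR adjusted p = 0.000231 and 0.00329), and CROT, the peroxisomal carnitine octanoyltransferase, was not called. CPT1C, the brain form, was below the filter. All 3 were called again for OO + PFA against PFA (ACADVL 1.23, HADHA 0.85, HADHB 0.67). HADHB lost that call in 7 of 11 fits without 1 pig and in 3 of 9 other settings, and for OO against control in 2 of 9 settings and in no fit without 1 pig.

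Beside 1.37% of all genes called as higher with OO, 1 of 5 tested genes that supply acyl-CoA at the outer membrane rose. This was ACSL1, the main long-chain acyl-CoA synthetase of liver, at 1.22 on the log2 scale (standard error 0.16, edgeR adjusted p = 9.36e-05), and it was 0.76 higher with OO + PFA than with PFA (edgeR adjusted p = 0.0226), a call lost in 3 of 11 fits without 1 pig. ACSL4, a synthetase that prefers arachidonate, was called as lower for OO + PFA against control, at -1.46 (edgeR adjusted p = 0.0340), a call lost in 8 of 11 fits without 1 pig.

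Genes that make malonyl-CoA or use it were mixed. Of 6 tested, 2 fell with OO against control and none was called as higher, beside 2.71% of all genes called. ACACA, the cytosolic acetyl-CoA carboxylase, fell by 0.75 on the log2 scale (standard error 0.20, edgeR adjusted p = 0.0438) and THRSP, a regulator of fatty acid synthesis, fell by 0.97 (standard error 0.22, edgeR adjusted p = 0.0188). The call of ACACA was lost in 9 of 12 fits without 1 pig and in 4 of 9 other settings, with an adjusted p of up to 0.264. THRSP was also lower for OO + PFA against PFA, at -1.20 (edgeR adjusted p = 0.00814). For OO + PFA against control, where 5.08% of all genes were called, THRSP was lower at -1.13 (edgeR adjusted p = 0.0137). ACACA was lower there too, at -0.84 (edgeR adjusted p = 0.0267), a call lost in 6 of 11 fits without 1 pig. ACSF3, the mitochondrial malonyl-CoA synthetase, was higher in that comparison, at 1.302 (edgeR adjusted p = 0.0475). This call was lost without 10 of the 11 pigs, and with the GC correction the value was 0.49 (edgeR adjusted p = 0.144). ACACB, the mitochondrial-membrane carboxylase, was not analysed here, since its identifier was not among the rows.

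No AMPK subunit (7 tested) and no gene of carnitine synthesis and transport (3 tested) was called for OO against control by edgeR, beside 2.71% of all genes. At an unadjusted p under 0.05 in edgeR stood 2 AMPK subunits and 1 carnitine gene, beside 2958 of all genes. DESeq2 called 2 of the AMPK subunits and none of the carnitine genes, beside 1087 of all genes. The smallest p values were those of PRKAG2, at -0.61 (edgeR adjusted p = 0.0593), and of TMLHE, the first enzyme of carnitine synthesis, at 0.36 (edgeR adjusted p = 0.209). With PFA in the liver or ileum, with OO + PFA against OO and for the interaction, no gene of the 5 lists was called by edgeR or DESeq2, and the genes with an unadjusted p under 0.05 in edgeR numbered 2 for PFA in the liver, 2 for OO + PFA against OO, 2 for the interaction and 1 for PFA in the ileum.

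**Figure D4:**
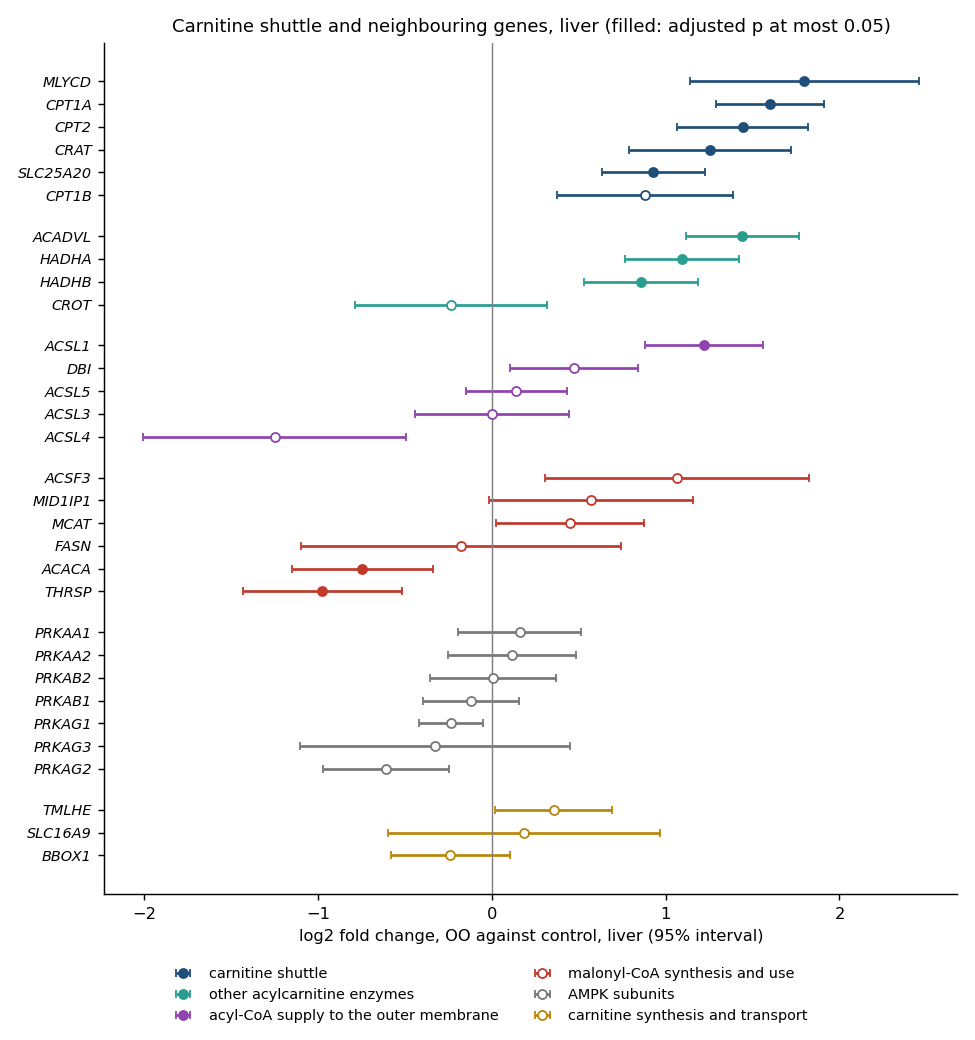
Log2 fold change of OO against control in the liver, with 95% intervals, for the 6 genes and for the tested genes of the 5 neighbouring lists. Filled points have an adjusted p of at most 0.05. The 5 filled shuttle genes, ACADVL, HADHA, HADHB and ACSL1 lie to the right of 0, and ACACA and THRSP lie to the left.

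Between pigs of one diet the 6 genes did not move as 1 block. With diet means taken away, CRAT and MLYCD had the highest correlation of the 15 pairs over 23 livers, a Pearson r of 0.849 and a Spearman rho of 0.669. Without pigs 130 and 97 of the OO group, the 2 livers farthest from the median of CRAT, r was 0.719, and with GC-corrected values it was 0.586. After that correction CPT2 and CRAT ranked first, at 0.658 against 0.404 before it. Pig 130 had the highest CRAT (383 CPM) and MLYCD (28.4 CPM) of the OO group, a GC slope of 0.342 and 14.7 read pairs with several alignments per 100. CPT1A and CPT2 had an r of 0.442 and a rho of 0.444, and 0.462 with GC-corrected values. CPT1A and SLC25A20, at 0.031 and at 0.072 with GC-corrected values, did not vary together. After the GC correction the r of SLC25A20 with CRAT rose from 0.0532 to 0.553 and with MLYCD from 0.0754 to 0.494. That of CPT1A with CRAT rose from 0.265 to 0.53, and CPT1B with CRAT turned from 0.388 to -0.467. Every pair without CPT1B was then positive, from 0.072 to 0.658, and every pair with it was negative, from -0.562 to -0.243. All points come from the same libraries, and no p is given for these values.

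The genes most like CPT1A across the 23 livers, diets included, were RAB30 (r = 0.948), DHRS4 (0.946), RETSAT (0.945), an unnamed gene (ENSSSCG00000000576, 0.941) and PMM1 (0.934), and CPT2 stood at place 6 of 13830 genes (0.923). Likeness of this kind largely follows the diets, as these 5 genes were between 1.72 and 3.55 higher on the log2 scale with OO than in control livers. With diet means taken away the leading genes were TM2D3 (r = 0.780), ADIPOR2 (0.757), ENSSSCG00000032456 (0.756), SLC37A4 (0.685) and CASP2 (0.684), and CPT2 was at place 322. The median over all genes was then -0.01.

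Levels of different genes were compared per kb of exon. In control livers CRAT was highest at 26.9 ± 3.66 CPM per kb (SD, n = 6), followed by CPT2 (19.96 ± 4.73), SLC25A20 (18.7 ± 2.92) and CPT1A (17.1 ± 2.83), and the range of each of these 4 overlapped that of the next. MLYCD (1.66 ± 0.3) and CPT1B (0.863 ± 0.169) were far lower, with ranges that overlapped neither each other nor the rest. In OO livers the same 4 genes led, with CPT1A (52.0 ± 9.50) now before SLC25A20 (35.6 ± 3.75). Their ranges still overlapped, with a lowest CPT1A of 40.2 and a highest SLC25A20 of 42.6 CPM per kb. Within each liver CPT1A exceeded CPT1B per kb by a median of 22.8 times in control (11.7 to 26.0) and 32.0 times in OO livers (19.6 to 52.2).

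The ileum was asked the PFA question too, in 5 against 5 pigs. Enterocyte marker sums were lower in the PFA pigs, as given above, and their part in the results was not tested. No member was called by edgeR, where 0% of all genes were called, or by DESeq2, and none had an unadjusted p under 0.05 with either, while 401 of all genes did in edgeR and DESeq2 called 5. CPT1A was at 60.7, 63.3, 64.6, 69.1 and 71.2 CPM in control and at 55.2, 61.3, 65.3, 66.2 and 70.5 CPM in PFA ileum. Its log2 difference of -0.05 had a 95% interval of -0.25 to 0.16, the narrowest of the 6. SLC25A20 had the smallest p, at 0.19 (interval -0.06 to 0.45, edgeR adjusted p = 0.991).

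Set against the livers of the same 10 pigs, the ileum differed for all 6 genes, but 78.1% of all 14982 genes tested were called in this comparison, 40.6% as higher and 37.5% as lower in the ileum. The fit held no term for the pig. Fitted together with the livers, CPT1A was at 10.2 ± 0.800 CPM per kb (SD, n = 10) in ileum and 23.6 ± 3.35 in liver, a log2 fold change of -1.21 (standard error 0.08, edgeR adjusted p = 3.48e-11). CPT2 (-1.44), SLC25A20 (-1.54), CRAT (-1.35) and MLYCD (-1.14) were lower in the ileum as well. CPT1B went the other way. It was at 4.95 ± 1.35 CPM per kb (SD, n = 10) in ileum, from 2.41 to 6.48, and at 1.15 ± 0.367 in liver, from 0.471 to 1.69, and was 2.10 higher on the log2 scale (standard error 0.21, edgeR adjusted p = 8.59e-09).

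**Figure D5:**
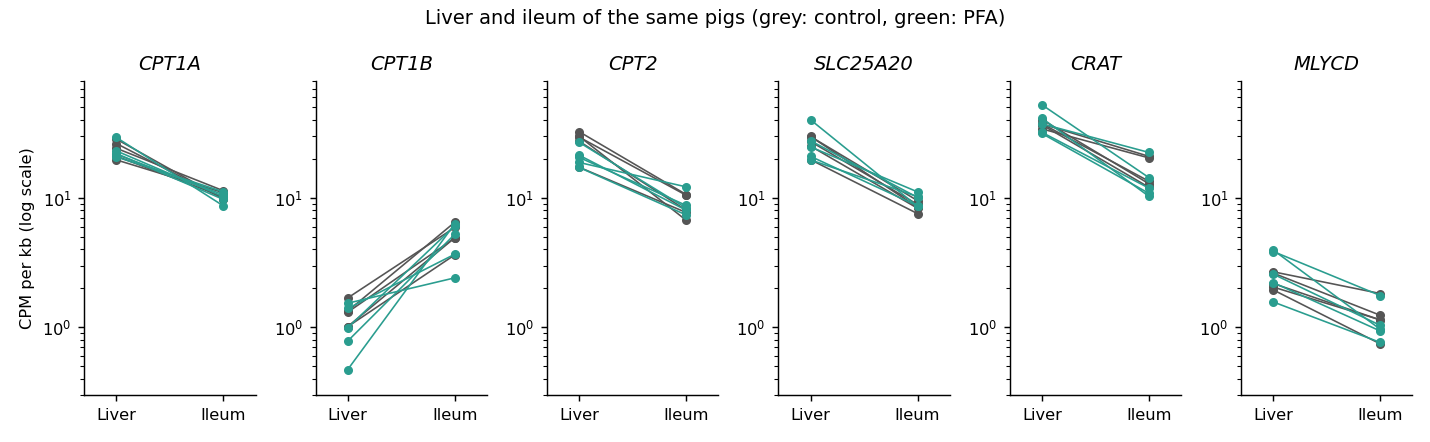
Levels of the 6 genes in liver and ileum of the same 10 pigs, in CPM per kb of exon on a log axis, with a line for each pig. CPT1B is higher in the ileum of each pig, between 2.41 and 6.48 CPM per kb, and the other 5 genes are lower there.

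In the ileum CPT1A thus exceeded CPT1B per kb by a median of 2.002 times in control pigs (1.57 to 3.13) and 1.68 times in PFA pigs (1.54 to 4.62). Muscle markers were present in this tissue: smooth muscle markers (5 of 6 in the tables) summed to between 2010 and 9796 CPM and striated muscle markers to between 14.6 and 79.1, against at most 167.6 and 0.672 in the livers. CPT1B was lowest in pig 138 of the PFA group, at 10.1 CPM, where smooth muscle markers summed to 2861, and highest in pig 71 of the control group, at 27.4 CPM, where they summed to 5143. Pig 80 of the control group, with the lowest smooth and striated muscle sums (2010 and 14.6), had 20.1 CPM, and pig 75 of the PFA group, with 9155 and the highest striated sum (79.1), had 22.1 CPM. The GC slopes, taken against the mean of all ilea, were -0.373, 0.258, 0.167 and -0.167 in pigs 138, 71, 80 and 75. The part of muscle or of the GC slope in the ileum level of CPT1B was not tested.

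Of the neighbouring genes, all 4 tested acylcarnitine enzymes were lower in the ileum, beside 37.5% of all genes called as lower. The 6 tested genes of malonyl-CoA synthesis and use were lower too, but THRSP was below the filter in the ileum fit and passed through the liver, and DESeq2 called 5 of the 6. ACACA was at -2.28 on the log2 scale (standard error 0.13, edgeR adjusted p = 8.42e-13). All 6 tested genes that supply acyl-CoA were called, 2 as higher and 4 as lower, beside 78.1% of all genes called. Of these 6, 1 was below the filter in the liver fit. Among the lower ones ACSL1 was at -6.18 (standard error 0.21, edgeR adjusted p = 1.25e-16). BBOX1, the last enzyme of carnitine synthesis, was lower at -7.26. SLC22A4 and SLC6A14, membrane transporters that can carry carnitine, passed the filter through the ileum and were below it in the liver fit, so their called difference was set by the filter and no fold is given. Of 7 AMPK subunits 5 were called, 4 as higher and 1 as lower, a share near the 78.1% of all genes.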

How the data were processed

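The members and gene lists were chosen with earlier results of these data known. The authors aligned paired reads of stranded poly(A) libraries with STAR 2.6.1d to Sscrofa11.1 and deposited raw counts per Ensembl gene from HTSeq, which were used as deposited. The annotation release and strand setting are not given in the sources used here. The submitters' processing notes also name DESeq2 1.22.2. HTSeq's own tallies of unassigned read pairs stayed out of library sizes. In the livers read pairs on no gene were 7.54 to 23.5 per 100 on genes.

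Symbols matched 14857 genes. Counts were filtered with filterByExpr, scaled by TMM and fitted with edgeR 4.0.16 (limma 3.58.1, R 4.3.3) by quasi-likelihood, 1 model for 23 livers, 1 for 10 ilea and 1 for 20 libraries of both tissues. p-values were adjusted by Benjamini-Hochberg over 13831, 14300 and 14982 genes and called at 0.05. Standard errors and 95% intervals come from the F statistic. Log2 CPM used a prior count of 2. CPM of the members used TMM-scaled library sizes, and marker sums used the plain totals. Exon lengths, GC content and upstream sequences came from RefSeq on Sscrofa11.1, with 250 bases before each start (Python 3.11.15, pandas 2.3.3, numpy 2.4.6, matplotlib 3.10.9). The fits were tested on simulated counts. Labels give pigs, 1 library each per tissue. Ileum and liver came from the same 10 pigs, but the main tissue fit held no term for the pig. A fit with the pig as a block was an alternative. Over all genes the deviation of an ileum from its group correlated with that of its own liver by -0.181 to 0.456, over 0.1 in 8 of 10 pigs. The members had at least 18 counts in every library fitted.

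Genes named from the lists were the called ones (at most 4 a list, by adjusted p), or the one of smallest p where none was called; likeness to CPT1A names 5 genes a measure. Alternatives were DESeq2 1.42.0, RLE size factors, no filter or 10 counts in every library, all 24 livers, a title form term, a lowess GC correction (span 0.5), 2 diets alone, a replicate block, leaving out each pig, and, added later, a term for read pairs on no gene.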

Additional observations from a re-analysis of the deposited data

Results flagged for a closer look

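In 4 of 36 sets of values (6 genes in 6 groups) the highest or lowest pig lay farther from its group than Dixon's 95% limit allows, and chance alone flags about 1 in 20 groups. In the PFA ileum, pig 134 had the highest CPT2, at 54.8 CPM against 38.6 in the next pig, and the highest MLYCD, at 5.93 against 3.45 CPM. This library also had the highest GC slope of all ilea (0.373) and the highest CRAT of the PFA ilea (118.6 CPM). In the liver, SLC25A20 was at 75.6 CPM in pig 130 of the OO group, against 63.6 in the next, and at 47.8 CPM in pig 95 of the PFA group, against 32.6 in the next. Pig 95 also had the lowest GC slope of all livers (-0.503) and the fewest read pairs on no gene (7.54 per 100). Without it SLC25A20 was called for OO + PFA against PFA, at 0.71 on the log2 scale (edgeR adjusted p = 0.00552). Pig 130 is described above with CRAT and MLYCD.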

How the results depend on the processing

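No called value of a member changed direction under any alternative or leave-one-out fit. All 6 genes stayed called across the 4 diets and between the tissues, with the pairing by pig (replicate block) too, where CPT1A was at -1.20 and CPT1B at 2.10. For OO against control 3 to 6 members were called (5 to 6 without 1 pig), and the 3 came with a term for read pairs on no gene. For OO + PFA against control they were 4 to 6 (4 without any 1 pig), and for OO + PFA against PFA 3 to 6, and 2 to 4 without 1 pig, with 2 without pig 107 of PFA. CPT1B was called for OO against control by DESeq2 (adjusted p = 0.0130) and with the GC correction (edgeR adjusted p = 0.0181) or the title form term (0.0430). Over all genes OO against control called 375, but 80 with the no-gene term, 196 in a fit of 2 diets, 224 with all 24 livers, 810 with the GC correction and 1087 by DESeq2. OO + PFA against control called 702, but 1346 by DESeq2, 1530 with all 24 livers and 1689 in a fit of 2 diets. OO + PFA against PFA called 218, but 140 with the no-gene term, 688, 963 and 1225 by DESeq2, 2 diets and 24 livers. The 4 diets called 506, but 331 with the no-gene term, 802 with the GC correction, 1114 with 24 livers and 1788 by DESeq2. Without 1 pig these counts ran from 167 (OO pig 130) to 1325 (OO pig 97), 191 (control pig 100) to 703, 103 (the OO + PFA pig with the highest CPT1A) to 411 (PFA pig 138) and 297 (control pig 85) to 1450 (OO pig 97).

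Some values that were not called changed sign. For PFA against control in the liver, CPT1A was 0.0482 with the GC correction, 0.0017 without a filter and 0.10 with the no-gene term, CRAT was 0.0141 without a filter, and CROT was -0.0076 with the no-gene term. For the interaction, CPT1B was -0.0719 with the GC correction and -0.17 with the no-gene term, where ACSL1 was 0.0122 and MID1IP1 0.0792. In the ileum with the GC correction CRAT was 0.0145 and MLYCD 0.10. Without 1 pig, liver PFA against control ran from -0.11 to 0.0397 for CPT1A, -0.0976 to 0.0685 for CRAT and -0.18 to 0.0300 for SLC25A20. Ileum PFA against control ran from -0.0852 to 0.0019 for CPT1A, -0.25 to 0.0498 for CPT1B, -0.0986 to 0.12 for CPT2 and -0.39 to 0.0498 for MLYCD. OO + PFA against OO ran from -0.33 to 0.0164 for CRAT and -0.52 to 0.0241 for MLYCD, and the interaction from -0.0319 to 0.27 for CPT1B and -0.32 to 0.0245 for CRAT. The causes were not tested. CPT1B had as few as 18 counts in a liver.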
